A study of Mus musculus with 16 samples.

Results

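The 9 genes described here encode complement components and their receptors: the C1q chains C1qa, C1qb and C1qc, the components C3 and C4b, the subunits Itgam and Itgb2 of complement receptor 3 (CR3), and the anaphylatoxin receptors C3ar1 and C5ar1. They were taken by symbol from a count table of 57010 genes, in which all 9 were present, and all 9 were among the 18227 genes with enough counts to be tested. The libraries hold total RNA of microglia taken from the olfactory bulbs of mice aged 2 months with magnetic beads against CD11b, 4 libraries from each sex of each genotype. WT mice were C57BL/6J with the unmodified mouse App gene. APP-NL-G-F mice (knock-in, KI) carry a humanised App with the Swedish, Arctic and Iberian changes at the mouse App locus, in every cell of the animal. No group received a treatment. The paper states that all its mice were kept on a C57BL/6J background and that the C57BL/6J controls were bought from the Jackson Laboratory. It does not call the WT mice littermates of the KI mice, so genotype and colony cannot be told apart. CD11b is the protein made from Itgam, so cells were selected on the product of one of the genes described.

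Complement is a cascade of plasma and tissue proteins that tags surfaces for removal. C1q starts the classical pathway by binding a target, C4 and C3 are then cleaved and deposited on it, and CR3 on phagocytes recognises fragments of deposited C3, while the released peptides C3a and C5a signal through C3ar1 and C5ar1. In the brain, microglia are the main source of C1q, and C1q, C3 and CR3 take part in the removal of synapses in development. Because axons can be tagged in the same way before microglia engulf them, the comparison asks whether microglia of the KI bulb carry more or less RNA for these proteins. RNA levels say nothing of deposited protein, and in bulk RNA fewer cells of a type and less RNA per cell cannot be told apart.

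Library totals ran from 9052932 to 18117286 counts, and 3 counts, the limit that a count of 0 allows, equal 0.166 to 0.331 CPM (a gene's counts scaled by the size of its library) depending on the library. The genes described here took between 0.585% and 0.733% of all counts in a library. All 12 homeostatic microglia markers were tested, and their summed level was 22964 to 27228 CPM in WT and 23089 to 26824 CPM in KI libraries, a difference of 0.01 on the log2 scale (two-sided exact permutation of genotype within sex, p = 0.845). Border macrophage markers summed to 1207 to 1681 CPM over all libraries, while T, NK and B cell markers reached at most 1.72 CPM and neutrophil markers at most 27.1 CPM. Of the lists of other cells and states, 3 moved with genotype: the 11 neuron markers were higher in KI libraries (306 to 482 CPM in WT, 407 to 620 in KI, exact permutation p = 0.00449), the 7 oligodendrocyte markers were higher (232 to 431 and 284 to 418 CPM, p = 0.0273), and the 10 immediate early genes were lower (5987 to 14486 and 2707 to 6234 CPM, p = 0.00122). No marker of these lists was at 0 in all libraries.

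The genes of the C1q chains lie side by side on chromosome 4 of GRCm39, all on the minus strand, in the order C1qb (136606009 to 136613511), C1qc (136616466 to 136620376) and C1qa (136623223 to 136626161), within 20153 bases. The gaps between them are 2954 and 2846 bases. The 200 bases before the annotated start of the main transcript of each chain are shown because the chains varied together across libraries. Capitals mark the letters GAGGAA on either strand, which read TTCCTC on the opposite strand. They are a form of the site that the myeloid factor PU.1 is known to bind, and other forms were not searched.
C1qa, chr4:136626162-136626361, minus strand: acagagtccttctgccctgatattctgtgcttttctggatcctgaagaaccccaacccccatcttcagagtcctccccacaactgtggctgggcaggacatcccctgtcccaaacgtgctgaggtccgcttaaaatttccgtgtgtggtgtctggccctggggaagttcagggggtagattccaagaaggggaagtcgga
C1qb, chr4:136613512-136613711, minus strand: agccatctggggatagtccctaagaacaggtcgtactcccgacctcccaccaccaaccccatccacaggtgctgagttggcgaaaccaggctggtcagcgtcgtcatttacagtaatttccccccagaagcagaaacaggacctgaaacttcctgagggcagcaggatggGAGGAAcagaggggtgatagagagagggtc
C1qc, chr4:136620377-136620576, minus strand: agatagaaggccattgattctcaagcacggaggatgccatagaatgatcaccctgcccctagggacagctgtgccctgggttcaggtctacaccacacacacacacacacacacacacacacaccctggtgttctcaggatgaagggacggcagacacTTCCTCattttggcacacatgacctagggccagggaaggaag
The letters occurred 1 time in the C1qb window, 30 bases before the start, and 1 time in the C1qc window, 42 bases before the start on the opposite strand, and were not in the C1qa window. Of 21770 windows of the same length before the starts of main transcripts, 18.8% held them. In the same windows of the other genes described, they were found for Itgam, at 80 and 11 bases before its start. The main transcript of C5ar1 starts inside the annotated gene, so its window overlaps the gene's first bases. TGCTGAC, part of the site that MAF factors are known to bind, was in 2.66% of all windows and in 0 of these 9. The match is a description of letters and not of binding.

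C1q transcripts were among the most abundant in these cells. C1qc averaged 1877 ± 137 CPM (SD, n = 16 libraries), C1qa 1767 ± 123 CPM and C1qb 1587 ± 113 CPM, which placed them at ranks 30, 35 and 42 of the 18227 tested genes. Itgam followed at 497 CPM and Itgb2 at 404 CPM, then C3ar1 at 206, C4b at 61.5, C5ar1 at 43.2 and C3 at 24.4 CPM. Lengths differ between these genes, so levels were also taken per kilobase of the main transcript. On that scale the order was C1qa (1626 CPM per kilobase), C1qc (1014), C1qb (627), Itgb2 (136), Itgam (133), C3ar1 (41.0), C5ar1 (17.0), C4b (11.3) and C3 (4.72). The ranges over libraries of Itgb2 and Itgam (120 to 154 and 111 to 154) overlapped almost entirely, those of C5ar1 and C4b overlapped (12.4 to 21.8 and 5.26 to 23.97), and so did those of C4b and C3 (2.09 to 13.4), so the order of these neighbours is not separated from their spread. The other steps of the order had ranges that did not overlap. With all annotated exons as the length, C1qb came to 254 and Itgam to 97.1 CPM per kilobase, and the order of the 9 genes was the same.

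**Figure D1:**
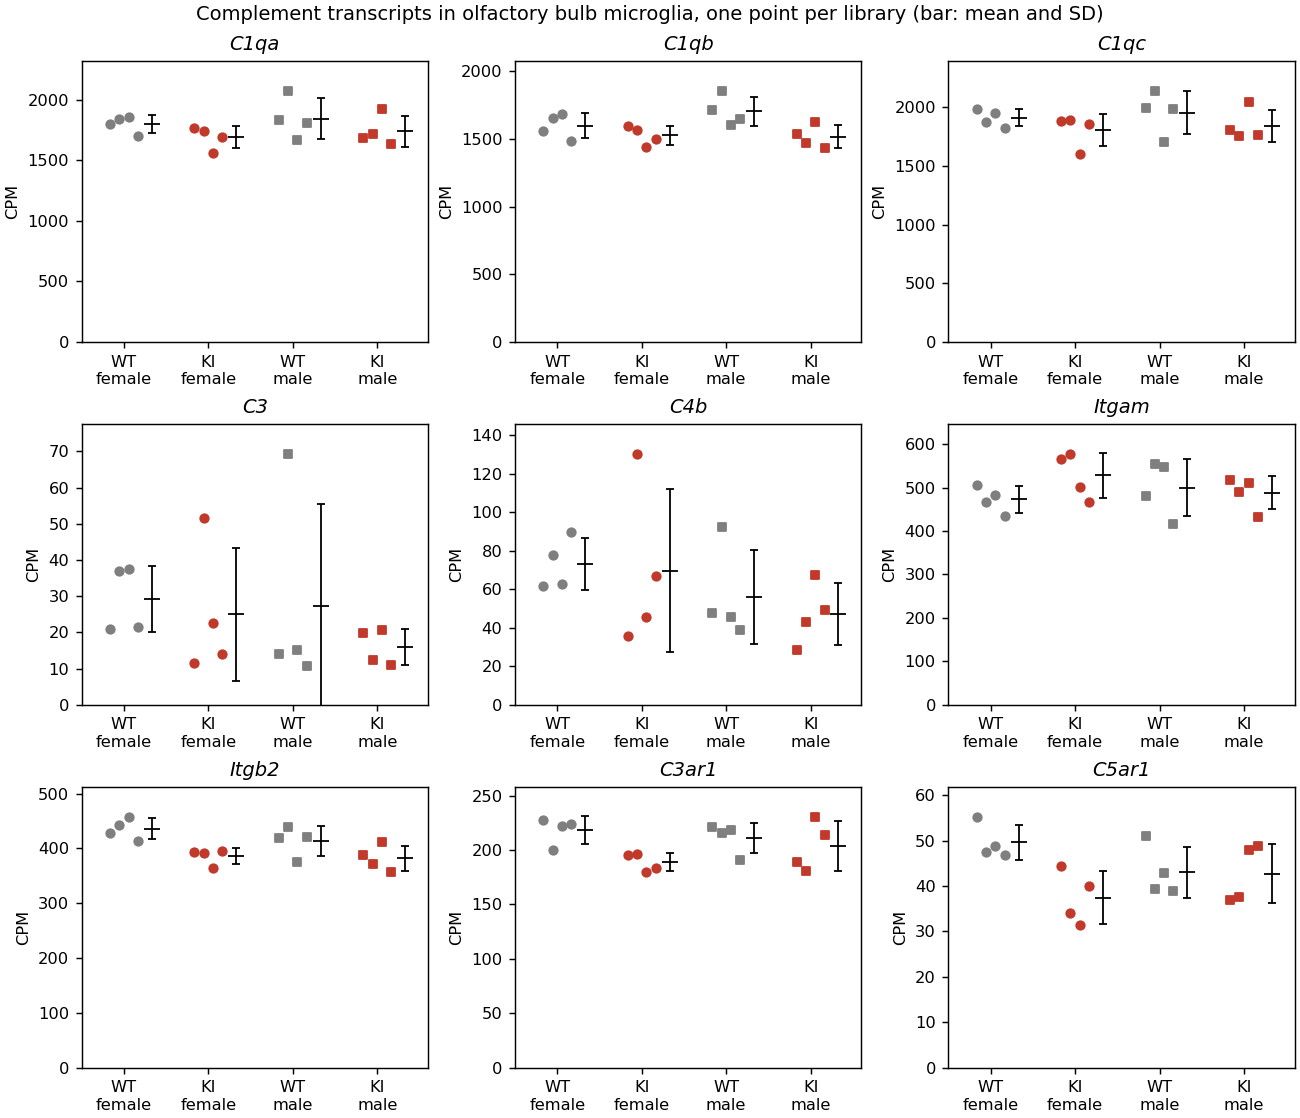
Level of each complement gene in CPM (linear axis from 0), one point per library, by genotype (grey WT, red KI) and sex (circles female, squares male), with the mean and SD of 4 libraries beside each group. C1q chains stay between 1431 and 2135 CPM in all libraries, whereas C3 ranges from 10.8 to 69.3 CPM. The lower SD bar of C3 in WT males would pass below 0 and ends at the axis.

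Genotype was compared over both sexes with sex as a term, by edgeR's quasi-likelihood test with Benjamini-Hochberg adjustment over all tested genes. Calls needed a false discovery rate (FDR) below 0.1 together with a log2 fold change beyond 0.5 in either direction. None of the 9 complement genes was called (0 of 9), against 8.64% of all tested genes. At the FDR alone 1 of 9 passed, Itgb2, against 14.8% of all genes. An unadjusted p below 0.05 was reached by 4 of 9, against 24.1% of all genes. The log2 fold change was below 0 for 8 of 9 genes, with a median of -0.13, against 50.4% of all genes and a median of -0.001. Several of these genes varied together across libraries, as given below, so the 8 are not separate observations. The 95% interval lay inside -0.5 to 0.5 for 7 of 9 genes, all but C3 and C4b, and for 10160 of all 18227 tested genes. WT and KI ranges overlapped for all 9, whereas they did not overlap for 1.29% of all tested genes.

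The C1q chains, which assemble into the recognition molecule of the classical pathway, had log2 fold changes of -0.08 to -0.12 in KI relative to WT libraries, and none passed the test. C1qb ran from 1485 to 1854 CPM with a median of 1654 in WT and from 1431 to 1624 CPM with a median of 1519 in KI libraries (n = 8 each). All 8 KI libraries were below the WT median, and 3 were below the lowest WT library, but the ranges overlapped. The log2 fold change of C1qb was -0.12 (SE 0.0459, 95% interval -0.21 to -0.02, FDR 0.116), and an exact permutation of genotype within sex gave p = 0.0163. Under 4 other settings (a scaling to the microglia markers, DESeq2, limma voom and a term for replicates 1 and 2 against 3 and 4) its FDR was below 0.1, at 0.015 to 0.0887, as it was in 3 of 16 fits that left out 1 library. C1qa ran from 1663 to 2069 CPM with a median of 1817 in WT and from 1562 to 1920 CPM with a median of 1701 in KI. Its log2 fold change was -0.09 (interval -0.19 to 0.02, FDR 0.296), and -0.05 without WT male 2. Scaled to the microglia markers its FDR was 0.0578. C1qc ran from 1699 to 2135 CPM with a median of 1968 in WT and from 1600 to 2043 CPM with a median of 1832 in KI, a log2 fold change of -0.08 (interval -0.19 to 0.03, FDR 0.372), and -0.05 without WT male 2. For both, 7 of 8 KI libraries were below the WT median. A fall of more than 14% in any chain lies outside these intervals, whose lower bounds were -12.3% for C1qa, -13.8% for C1qb and -12.5% for C1qc. The proportions of the chains to each other were steady, with C1qc to C1qa count ratios of 1.02 to 1.10 in both genotypes. The log2 ratios of C1qb to C1qa, C1qc to C1qa and C1qc to C1qb differed between the genotypes by -0.03, 0.005 and 0.04 (exact permutation, adjusted p = 0.61, 0.833 and 0.61).

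C3, the central component that all activation routes share, varied most. In WT males it was 13.96, 69.3, 15.1 and 10.8 CPM in replicates 1 to 4, and in WT females 21.0, 37.0, 37.4 and 21.5 CPM. In KI females it was 11.5, 51.5, 22.7 and 14.1 CPM, and in KI males 19.9, 12.2, 20.7 and 11.1 CPM. WT and KI libraries overlapped within each sex, and the highest values belonged to 1 WT and 1 KI library. The SD of log2 CPM of C3 over the 16 libraries, 0.81, exceeded that of 96.7% of the tested genes, while that of C1qa, 0.10, exceeded 11.5%. The log2 fold change of C3 was -0.52 (SE 0.370, interval -1.29 to 0.26, FDR 0.434), an interval from -59.2% to 19.5%. It was -0.01 without WT male 2 and -0.83 (FDR 0.146) without KI female 2. Without both libraries it was -0.32 over both sexes (FDR 0.51), and in females -0.84 (SE 0.275, FDR 0.0957), which would be called. That alternative was chosen after the values were seen.

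C4b, the mouse gene for component C4, was 47.7, 92.4, 45.8 and 38.6 CPM in WT males and 61.9, 77.8, 62.8 and 89.9 CPM in WT females. It was 35.8, 130, 45.6 and 67.1 CPM in KI females and 28.6, 43.3, 67.3 and 49.2 CPM in KI males. KI female 2 and WT male 2 were again the highest, and the groups overlapped. The log2 fold change was -0.17 (SE 0.238, interval -0.66 to 0.33, FDR 0.738), and 0.01 without WT male 2. C4b shares 34.8% of the 50-base windows of its transcript with the neighbouring gene C4a, so its counts are uncertain there. How reads were divided between the genes was not tested. C4a itself had 7 to 34 counts per library, 0.873% to 9.23% of those of C4b. C3 and C4b varied together across libraries, with a Pearson r of 0.72 (permutation test with 100000 resamples, adjusted p = 0.00621 over 36 pairs) and a Spearman rho of 0.70 (adjusted p = 0.0169). Without the 2 libraries farthest from the median of C3, r was 0.53. The ratio of C4b to C3 counts ran from 1.33 to 4.17 in WT and from 1.44 to 4.74 in KI libraries (log2 difference 0.17, exact permutation p = 0.573, adjusted p = 0.669).

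**Figure D2:**
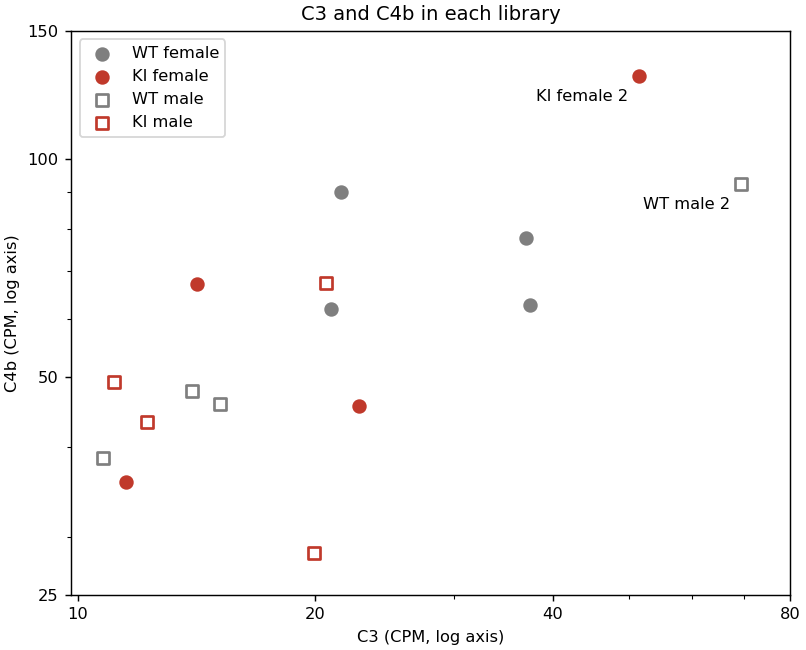
C3 against C4b in CPM, both on log axes, one point per library (grey WT, red KI, filled circles female, open squares male). WT male 2 (69.3 and 92.4 CPM) and KI female 2 (51.5 and 130 CPM) sit at the upper right, and the genotypes are mixed among the other 14 libraries.

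Of the CR3 subunits, Itgb2 was lower in KI microglia at the FDR, by less than the size needed for a call, and Itgam did not pass. Itgb2 encodes the beta chain CD18, which pairs with several integrin alpha chains, and Itgam the alpha chain CD11b. Itgb2 was 428.8, 443.5, 458.0 and 413.7 CPM in WT females, 419.4, 439.2, 374.4 and 420.0 CPM in WT males, 392.8, 391.9, 364.8 and 395.1 CPM in KI females, and 387.4, 371.2, 411.0 and 357.6 CPM in KI males. All 4 KI female libraries were below all 4 WT female libraries, whereas the male groups overlapped through WT male 3. The share of all tested genes separated in this way in females was not counted. In females alone the log2 fold change of Itgb2 was -0.18 and did not pass (FDR 0.104). All 8 KI libraries were below the WT median. The log2 fold change was -0.14 (SE 0.0423, interval -0.23 to -0.06, FDR 0.0381), a change of -9.55% with an interval of -14.9% to -3.82%, and the exact permutation gave p = 0.00449. The FDR stayed below 0.1 in each of 16 fits that left out 1 library, at 0.0107 to 0.0849. It was above 0.1 with plain library totals as the scaling (log2 fold change -0.10, FDR 0.162) and without the filter on low counts (FDR 0.127). It was again above 0.1 in replicates 3 and 4 alone (-0.12, FDR 0.708) and without WT male 2 and KI female 2 together (-0.13, FDR 0.113). In replicates 3 and 4 alone 96 of 18282 tested genes passed the FDR, against 3679 of 18534 in replicates 1 and 2 alone. Across libraries Itgb2 was lower where the summed neuron markers were higher (r = -0.83, adjusted p = 0.0108 over 108 pairs of a gene and a list, rho = -0.84, adjusted p = 0.013, r without the 2 farthest libraries -0.82). Both differed between the genotypes, and r was -0.62 in the residuals from the 4 group means. The part of neuron transcripts in the Itgb2 difference was not tested. Scaled to the homeostatic microglia markers, the log2 fold change was -0.15 (FDR 0.00835).

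Itgam ran from 415 to 554 CPM with a median of 482 in WT and from 433 to 578 CPM with a median of 506 in KI libraries. The ranges overlapped almost completely, and 6 of 8 KI libraries were above the WT median. Its log2 fold change was 0.06 (SE 0.0674, interval -0.08 to 0.20, FDR 0.639). With 1 library left out it lay between 0.04 and 0.10, at 0.10 without WT male 2, WT male 3 or KI male 4 and at 0.04 without KI female 2 or WT male 4. The part of the bead selection on CD11b in this value was not tested. In the annotation used here, 67.4% of the exon bases of Itgam lie also in exons of Gm49368, a gene on the same strand that reads on into its neighbour, and the count table gave 0 to 4 counts per library to Gm49368. The ratio of Itgam to Itgb2 counts within a library needs no scaling. It was 1.18, 1.05, 1.06 and 1.05 in WT females and 1.44, 1.47, 1.38 and 1.18 in KI females, and 1.15, 1.26, 1.46 and 0.989 in WT males and 1.33, 1.32, 1.24 and 1.21 in KI males. KI females lay above WT females, though KI female 4 and WT female 1 were both at 1.18, and the male groups overlapped. All 8 KI libraries were above the WT median of 1.10. The log2 ratio was higher by 0.21 in KI libraries (exact permutation p = 0.0245, adjusted p = 0.171 over 7 ratios), which does not pass the correction. Within females the difference was 0.33 (exact permutation p = 0.0286, the smallest that 4 against 4 allows) and within males 0.08 (p = 0.571). With 1 library left out the adjusted p over both sexes lay between 0.02, without WT male 3, and 0.411. It was below 0.05 in 1 of these 16 cases.

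**Figure D3:**
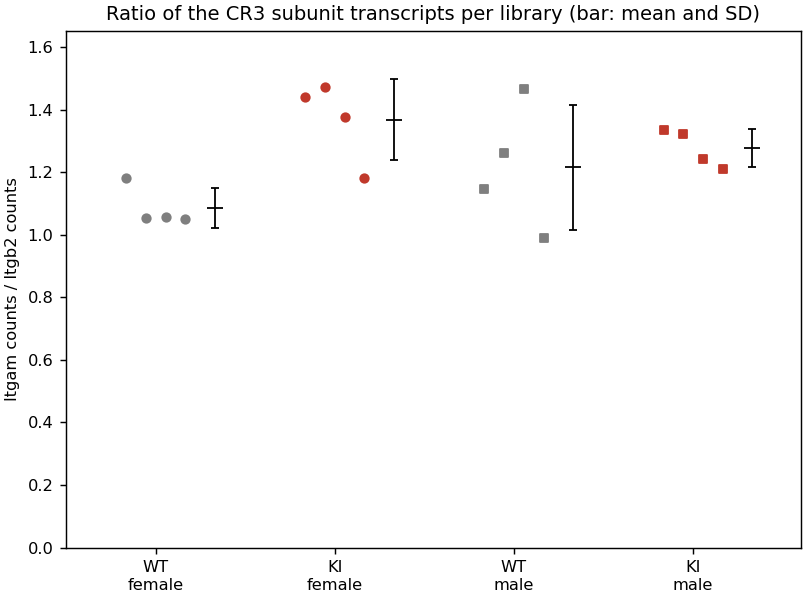
Ratio of Itgam to Itgb2 counts in each library (linear axis from 0), by genotype (grey WT, red KI) and sex (circles female, squares male), with mean and SD of 4 libraries. The 8 KI libraries sit between 1.18 and 1.47, and WT libraries between 0.989 and 1.46, with WT male 3 the highest of them.

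Of the anaphylatoxin receptors C3ar1 and C5ar1, which bind C3a and C5a, C5ar1 was lower in KI females at the FDR alone and C3ar1 did not pass. C5ar1 was 55.3, 47.5, 48.8 and 46.8 CPM in WT females and 44.4, 34.0, 31.5 and 39.97 CPM in KI females. These groups did not overlap, and the share of all tested genes separated in this way was not counted. In WT males C5ar1 was 51.1, 39.3, 42.8 and 38.8 CPM and in KI males 36.8, 37.5, 47.9 and 48.8 CPM, with overlapping groups. In females 0 of 9 complement genes were called, against 7.15% of all tested genes, and 1 of 9, C5ar1, passed the FDR alone, against 9.42%. Its log2 fold change in females was -0.41 (SE 0.120, interval -0.66 to -0.15, FDR 0.0539), and in males -0.01 (interval -0.26 to 0.25, FDR 0.99). The difference between the sexes was -0.40 (interval -0.76 to -0.04, unadjusted p = 0.0301), which did not pass the adjustment (FDR 0.763). The female value kept an FDR below 0.1 in 11 of 16 fits that left out 1 library (-0.48 to -0.33), and lost it without WT female 1, 2 or 3 or KI female 2 or 3. With plain library totals it was -0.33 (FDR 0.111). Over both sexes C5ar1 was -0.21 (interval -0.41 to -0.01, FDR 0.187). It was -0.35 (FDR 0.0458) in replicates 1 and 2 alone and -0.08 (FDR 0.921) in replicates 3 and 4 alone, which the library names place in separate blocks of numbers. Over all tested genes 3679 of 18534 passed the FDR in replicates 1 and 2 alone and 96 of 18282 in replicates 3 and 4 alone. C5ar1 varied with the summed immediate early genes (r = 0.72, adjusted p = 0.0475 over 108 pairs, rho = 0.66, adjusted p = 0.112, r without the 2 farthest libraries 0.64), 9 of whose 10 genes were called lower in KI microglia. In the residuals from the 4 group means r was 0.54. The part of the immediate early genes in the C5ar1 difference was not tested.

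C3ar1 was 228.0, 199.9, 222.6 and 223.9 CPM in WT females and 195.4, 196.3, 180.1 and 183.2 CPM in KI females. The groups did not overlap, and the share of all tested genes separated in this way was not counted. In WT males C3ar1 was 221.2, 215.9, 218.1 and 191.1 CPM and in KI males 189.1, 181.1, 230.8 and 213.8 CPM, where KI male 3 was the highest of all 16 libraries. The log2 fold change was -0.21 in females (SE 0.0745, interval -0.37 to -0.06, FDR 0.107), -0.05 in males (interval -0.21 to 0.10, FDR 0.818) and -0.13 over both sexes (SE 0.0544, interval -0.25 to -0.02, FDR 0.134, exact permutation p = 0.0384). None of these passed. Over both sexes the FDR was 0.0352 in replicates 1 and 2 only, 0.0725 without WT male 4 and 0.0358 without KI male 3. In replicates 1 and 2 only, 3679 of 18534 tested genes passed the FDR, and without KI male 3 this was 4027 of 18114. C3ar1 went against the summed neuron markers in rank (rho = -0.78, adjusted p = 0.0329 over 108 pairs) but not in Pearson r after adjustment (r = -0.64, adjusted p = 0.0971, r without the 2 farthest libraries -0.74). In the residuals from the 4 group means r was -0.47. The part of neuron RNA in the C3ar1 values was not tested. The ratio of C5ar1 to C3ar1 counts was 0.182 to 0.243 in WT and 0.173 to 0.228 in KI libraries (log2 difference -0.08, exact permutation p = 0.32, adjusted p = 0.61), and that of C3 to C3ar1 had a log2 difference of -0.27 (p = 0.537, adjusted p = 0.669).

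**Figure D4:**
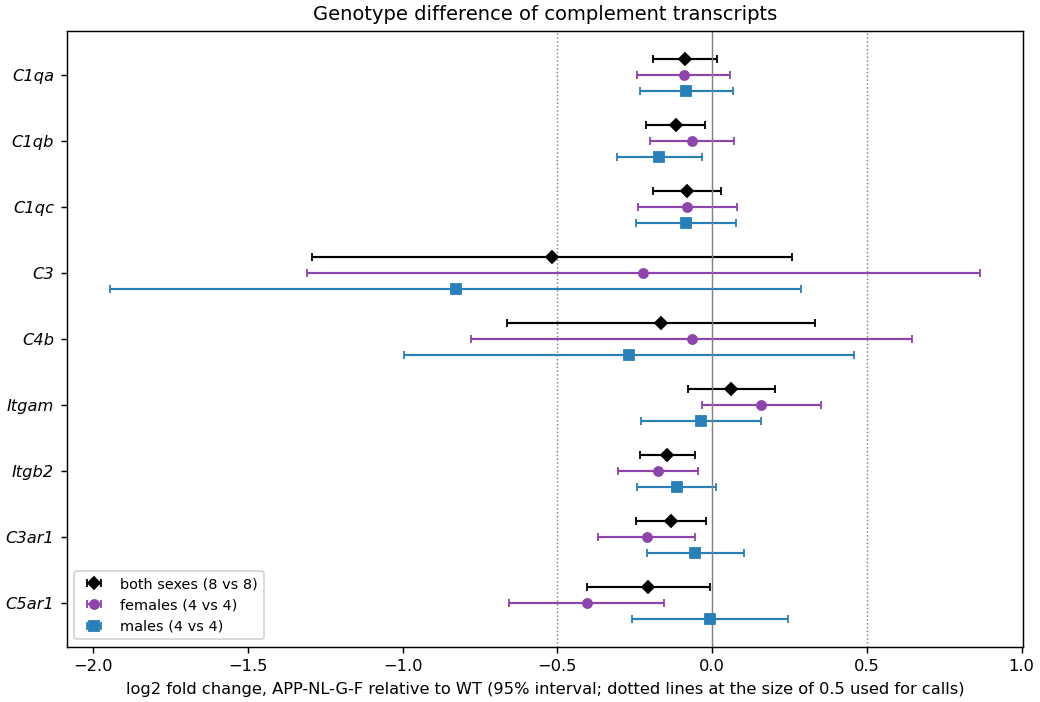
Log2 fold change of each complement gene in KI relative to WT microglia with its 95% interval, over both sexes (black diamonds, 8 against 8 libraries), in females (purple circles) and in males (blue squares, 4 against 4 each). Dotted lines mark 0.5 in either direction. Intervals of the C1q chains, Itgam, Itgb2 and C3ar1 stay within the dotted lines in every comparison, those of C3 and C4b cross them, and that of C5ar1 crosses in females.

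In males 0 of 9 complement genes were called, against 0.252% of all tested genes, and 0 passed the FDR, against 0.269%. At an unadjusted p below 0.05 there was 1, against 11.7%, namely C1qb, with a log2 fold change of -0.17 (interval -0.31 to -0.03, FDR 0.307). For the genotype effect in females minus that in males, 0 of 9 were called, against 0.0274% of all genes, and 1 had an unadjusted p below 0.05, C5ar1, against 5.94%. Female against male microglia differed in 0 of 9, against 0.0604% of all genes, and 0 had an unadjusted p below 0.05, against 6.56%. The largest difference of that kind was C4b, at 0.46 higher in females (interval -0.04 to 0.96, FDR 0.769).

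Across the 16 libraries, 8 of 36 pairs of complement genes were correlated in both Pearson r and Spearman rho after adjustment, and they formed 3 groups. The C1q chains went together, with r of 0.92 for C1qa and C1qc, 0.88 for C1qa and C1qb and 0.77 for C1qb and C1qc (adjusted p = 0.00036, 0.00072 and 0.003, the first from the smallest p that 100000 resamples can give, 1e-05). Spearman rho was 0.89, 0.84 and 0.76 for these pairs (adjusted p = 0.00072, 0.00204 and 0.00672), and r without the 2 farthest libraries was 0.87, 0.76 and 0.69. Itgb2 joined them, with r of 0.80 to C1qa, 0.75 to C1qb and 0.78 to C1qc (adjusted p = 0.00144, 0.00339 and 0.00245, rho 0.84, 0.77 and 0.74, adjusted p = 0.00126, 0.00605 and 0.00694). In the residuals from the 4 group means these were 0.90, 0.89 and 0.89. C3ar1 and C5ar1 went together (r = 0.78, adjusted p = 0.00245, rho = 0.77, adjusted p = 0.00605, r of 0.71 without the 2 farthest libraries and 0.66 in the residuals), and so did C3 and C4b. Within replicates 1 and 2 and within replicates 3 and 4, taken apart, the r of C3 and C4b was 0.83 and 0.48, that of C3ar1 and C5ar1 0.72 and 0.87, and those of the C1q chains and Itgb2 lay between 0.68 and 0.94. Itgam was not correlated with its partner Itgb2 (r = -0.09). All values of a library share its scaling, and C1qa went with the summed homeostatic microglia markers (r = 0.74, adjusted p = 0.0324, rho = 0.62, adjusted p = 0.125, r of 0.70 without the 2 farthest libraries) and against the neuron markers (r = -0.74, adjusted p = 0.0324, rho = -0.75, adjusted p = 0.0418, r of -0.84 without the 2 farthest). C1qc also went with the homeostatic markers (r = 0.72, adjusted p = 0.0418, rho = 0.69, adjusted p = 0.0873, r of 0.70 without the 2 farthest).

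**Figure D5:**
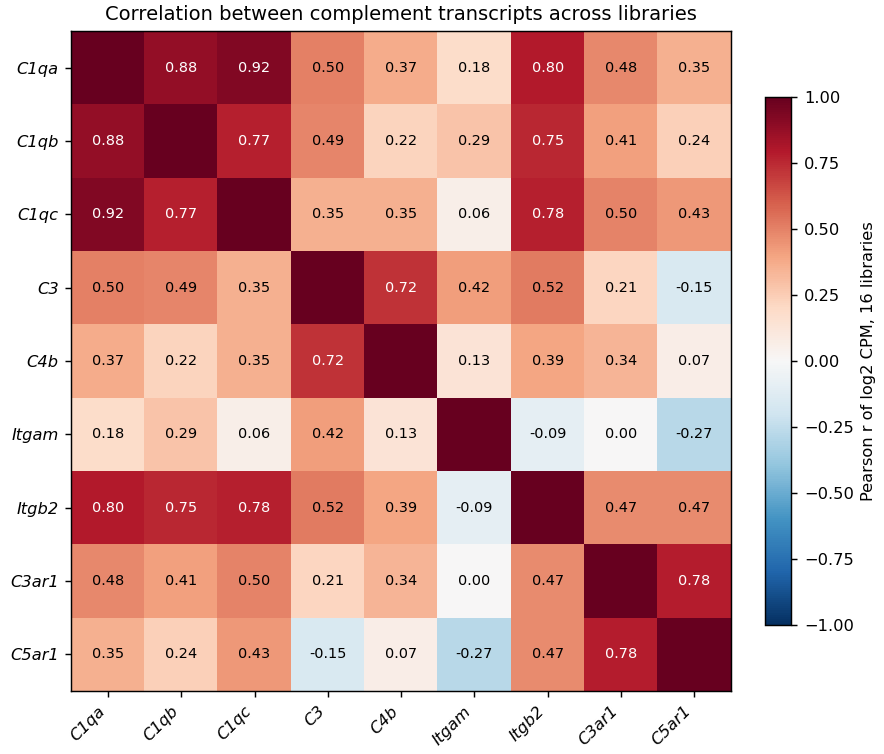
Pearson r of log2 CPM over the 16 libraries for each pair of complement genes, printed in the cells and coloured from -1 (blue) to 1 (red). Itgb2 goes with the C1q chains (0.75 to 0.80), C3 with C4b (0.72) and C3ar1 with C5ar1 (0.78), while Itgam and Itgb2 stand at -0.09.

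For each complement gene the 3 tested genes of highest r over the 16 libraries are given as a description. C1qa was nearest to Rpl10 (r = 0.93), Grn (0.93) and C1qc (0.92). C1qb was nearest to Siglech, C1qa and Tpt1 (0.91, 0.88 and 0.88), and C1qc to C1qa, Fam3a and Grn (0.92, 0.92 and 0.92). C3 was nearest to Cxcl9 (0.86), a chemokine induced by interferon gamma, Pdyn (0.86), and the chemokine gene Ccl5 (0.85). C4b was nearest to the receptor kinase gene Axl (0.89) and the class I antigen presentation genes H2-Q7 (0.89) and H2-D1 (0.88). Itgam was nearest to Papola, Smim15 and Cfap97 (0.91, 0.90 and 0.90), and Itgb2 to Mtmr14, Mrrf and Gm50399 (0.92, 0.91 and 0.91). C3ar1 was nearest to Srgn, Tagln2 and BC005537 (0.86, 0.86 and 0.85), and C5ar1 to Gm10209, Crem and Trp53inp2 (0.88, 0.86 and 0.86).

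Among the other genes of the pathway, 31 of 59 listed had enough counts to be tested and 28 did not. Over both sexes 0 of 31 were called, against 8.64% of all tested genes, and 3 of 31 passed the FDR alone, a share below the 14.8% of all tested genes. These were Sez6 and Susd4, higher, and Calr, lower, which are named after their values were seen. Sez6, a brain protein that dampens complement activation, was 42.1 ± 10.7 CPM in WT and 58.8 ± 11.4 CPM in KI libraries (SD, n = 8 each), with a log2 fold change of 0.48 (SE 0.150, FDR 0.0498). Susd4, another regulator, was 8.77 ± 2.32 and 11.7 ± 2.02 CPM, a log2 fold change of 0.43 (FDR 0.0939). Calr, calreticulin, which binds C1q, was 1121 ± 82.3 and 996.7 ± 41.0 CPM, a log2 fold change of -0.17 (FDR 0.0301). Sez6 and Susd4 belong to the membrane regulators, whose summed level was 231 to 323 CPM in WT and 277 to 360 CPM in KI libraries. The summed neuron markers were also higher in KI libraries, as given above, and their part in these values was not tested.

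Of the most abundant genes of each role, Lrp1, a phagocytic receptor, was at 2493 ± 149 CPM in WT and 2386 ± 206 CPM in KI libraries (log2 fold change -0.06, interval -0.18 to 0.05, FDR 0.539). Clu, clusterin, was at 30.4 ± 9.85 and 26.9 ± 5.15 CPM (-0.13, FDR 0.635), Csmd3 at 91.3 ± 18.1 and 93.4 ± 13.1 CPM (0.04, FDR 0.878), Cfp, properdin, at 7.85 ± 1.22 and 8.99 ± 0.896 CPM (0.20, FDR 0.235) and C4a at 1.57 ± 0.611 and 1.72 ± 0.654 CPM (0.16, FDR 0.783). The lectin pathway genes Colec12 and Masp1 were at 12.6 ± 3.16 and 13.1 ± 2.25 CPM and at 4.12 ± 0.835 and 3.82 ± 0.673 CPM (FDR 0.897 and 0.731). The transcripts of C2, factor B and the terminal components were scarce. C2 was at 0.548 ± 0.209 CPM in WT and 0.644 ± 0.202 CPM in KI libraries (FDR 0.76), Cfb reached at most 0.448 CPM, and none of the 7 terminal components was tested, their summed level being at most 0.785 CPM in any library.

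In females 3 of the 31 pathway genes were called, all lower, against 7.15% of all tested genes: Vtn, vitronectin, with a log2 fold change of -0.73 (SE 0.211, FDR 0.0508), Cd93, a receptor of endothelial and myeloid cells once described as a C1q receptor, with -0.65 (SE 0.203, FDR 0.0716), and Serping1, the C1 inhibitor, with -0.97 (SE 0.312, FDR 0.0792). In males their values were 0.04, 0.60 and 0.45 (FDR 0.963, 0.271 and 0.626), and the differences between the sexes did not pass the test (FDR 0.71, 0.236 and 0.502). In the same female comparison 8 of 10 endothelial markers were called lower, with a median of -1.02, and these summed to 104 to 234 CPM in WT females and 91.3 to 113 CPM in KI females. In males they summed to 70.1 to 83.5 CPM in WT and 89.7 to 125 CPM in KI libraries. The part of vessel cell RNA in these 3 genes was not tested. In males, for the difference between sexes and between females and males, 0 of 31 were called, against 0.252%, 0.0274% and 0.0604% of all tested genes.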

How the data were processed

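RNA of olfactory bulb microglia was measured in 16 libraries, 4 per sex and genotype. The authors aligned paired reads with STAR to GRCm39 and gencode vM32, to which human App had been added, and deposited raw counts per gene. The strand setting of the counting is not given in the sources used here. Each library counts as 1 replicate, and where libraries do not come from separate mice, p-values measure the spread between libraries only.

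From these counts, a gene entered the test where no fewer than 5 counts were reached by 50% of libraries or more. Tests used edgeR 4.0.16 in R 4.3.3 (TMM scaling, quasi-likelihood, sex as a term, Benjamini-Hochberg over all tested genes). Within-sex contrasts came from a fit of the 4 groups. The SE was taken from the F statistic. CPM values use TMM-scaled totals, and log2 CPM a prior count of 2. Permutations exchange genotype within sex over 4900 splits, two-sided, with a smallest p of 0.000408. Limits that 3 counts give cover counting error only. Positions and lengths came from gencode vM39 on GRCm39, with 1 annotated length for 95.0% of tested genes. The statistics were tested on simulated data.

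The genes, lists and tests were chosen with earlier results of these data known. Named beside the 9 genes are pathway genes called in any comparison, the 2 most abundant of each role list, and the 3 genes most like each complement gene. Alternatives were DESeq2 1.42.0, limma 3.58.1 voom, other scalings and filters, replicate blocks, replicates 1 and 2 or 3 and 4 alone, no sex term and leaving out each library. Leaving out WT male 2 and KI female 2 was added after seeing the data. Proteins were not used here, and 1 named pathway gene is left out of the text.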

Additional observations from a re-analysis of the deposited data

Results flagged for a closer look

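Among 64 groups of 4 libraries (the 9 genes and the 7 ratios in each group), 7 had 1 library set apart by Dixon's test (95% level), where chance would give 3.2. Values in brackets divide its distance from the closest other library by the span of all 4. WT male 2 was highest of its group for C3 (0.925), for C4b (0.830) and for the ratio of C3 to C3ar1 (0.881), and lowest for the ratio of C4b to C3 (0.83). These share the C3 and C4b counts of that library and are not separate observations. KI female 3 was lowest of its group for C1qc (0.897), at 1600 CPM, and for Itgb2 (0.893), at 364.8 CPM. WT female 1 was highest of its group for the ratio of Itgam to Itgb2 (0.956), at 1.18. Causes of these single values were not tested.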

How the results depend on the processing

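The count of complement genes called over both sexes, in females, in males, between the sexes and in the sex comparison was 0 and stayed 0 in each fit that left out 1 library. It was 1 without the filter on low counts over both sexes, in males and for the difference between the sexes, in each case C3 (FDR 0.0842, 2.75e-11 and 0.00663). Without that filter 1873, 880 and 470 of 39394 genes were called in these comparisons, against 1574, 46 and 5 of 18227 in the main fit. Why C3 passed there was not tested. At the FDR alone the count of complement genes was 1 over both sexes and 1 in females. Without WT male 2 and KI female 2 it was 1 in females, where 1225 of 18183 tested genes were called. The labels number replicates 1 to 4 in every group. Libraries of the same number did not deviate together (median r 0.03, over 0.1 in 8 of 24 pairs), so the numbers were not taken to pair libraries. With the replicate block 0 complement genes were called over both sexes, Itgb2 was at -0.14 (FDR 0.0501), and the count of other pathway genes was 1. That count, 0 as reported, was also 1 with library totals and with limma voom, 3 with replicates 1 and 2 only, 3 at the FDR alone and 0 to 2 with 1 library left out (2 without WT male 1, WT female 4 or KI male 3). With replicates 1 and 2 only, 2503 of 18534 tested genes were called over both sexes. The count of ratios past the correction was 0 to 1 with 1 library left out. C4b turned to 0.0051 with replicates 3 and 4 only and lay between -0.40 and 0.0122 with 1 library left out. The log2 ratio of C1qc to C1qa lay between -0.0045 and 0.015, and that of C3 to C3ar1 between -0.47 and 0.0283, the last without WT male 2. Over both sexes, the other 8 genes and 5 ratios had the same sign under all alternatives run. C3 rested on 106 to 1232 counts per library and C4b on 336 to 1746, and the summed terminal components were at most 0.785 CPM, near the limit of 3 counts.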

Other observations

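WT male 2 and KI female 2, the libraries with the highest C3 and C4b, were also the highest for the genes most like C3. Cxcl9 was 48.0 and 31.8 CPM in these libraries, against 0.562 to 17.4 CPM (median 5.11) in the other 14. Ccl5, whose product attracts lymphocytes, was 13.2 and 13.96 CPM, against 1.63 to 7.86 CPM. H2-D1, a class I antigen presentation gene and one of those most like C4b, was 651 and 623 CPM, against 351 to 610 CPM. H2-Q7, another such gene, was 2.76 and 3.43 CPM, against 0.51 to 4.27 CPM. Axl was 114 and 144 CPM, against 71.4 to 128 CPM. These genes were found by their likeness to C3 or C4b in the same libraries, so their high values there are a description. Over genotype, Cxcl9, Ccl5, Axl and H2-Q7 did not pass the test (FDR 0.465, 0.576, 0.864 and 0.259). H2-D1 passed the FDR alone, at -0.33 (edgeR quasi-likelihood, FDR 0.089). In the same libraries T, NK and B cell markers summed to 0.844 and 1.72 CPM, against 0.336 to 1.34 CPM in the others, monocyte markers to 39.0 and 61.0 CPM, against 52.0 to 97.1 CPM, and homeostatic microglia markers to 27228 and 24709 CPM, against 22964 to 26824 CPM. The libraries come from different genotypes and sexes and share the replicate number 2 in the labels.

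Of the 9 genes most like Itgb2, C3ar1 and C5ar1, 8 passed the FDR between the genotypes in the same fit, against 14.8% of all tested genes. Of the genes most like the other complement genes, only H2-D1 passed it (FDR 0.089). Mtmr14, most like Itgb2, was lower in KI microglia (log2 fold change -0.35, FDR 0.00291), as were Mrrf (-0.28, FDR 0.07), Tagln2 (-0.30, FDR 0.02) and Srgn (-0.28, FDR 0.0692), the last 2 being most like C3ar1. Crem, a cyclic AMP responsive regulator, and Trp53inp2, both most like C5ar1, were at -0.44 (FDR 0.0348) and -0.30 (FDR 0.0322). Gm50399, like Itgb2, and Gm10209, like C5ar1, were called, at -1.07 (FDR 0.0274) and -0.95 (FDR 0.047), with at most 2.44 CPM in any library. BC005537, like C3ar1, did not pass (-0.06, FDR 0.365). They were chosen on the same libraries, so their differences are no separate evidence.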
